A study of Homo sapiens with 20 samples.

Results

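Rab GTPases are small membrane-bound switches that give each compartment of the secretory and endocytic pathways its identity. A Rab is loaded with GTP by an exchange factor, recruits effectors such as tethers and motor adaptors, and is turned off by a GTPase-activating protein, after which it can be taken off the membrane and used again. RAB27A, RAB27B, RAB35 and RAB11A have been linked to exosome release, which makes the family's own mRNAs of interest in exosome RNA. The 62 Rab genes described here are those whose symbol has the plain Rab form (RAB, a number, and at most a letter and a digit) and which have at least 1 protein-coding transcript, out of 62266 genes in the deposited tables. RAB13 was set aside by that rule, and RAB1C was left out because it has no protein-coding transcript. No measured value entered the rule, although the family was chosen with earlier results of these data known.

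The RNA came from HEK293, a human embryonic kidney line, and was isolated from HD-induced granules, HD-induced exosomes, control granules and control exosomes, with 5 libraries in each group. Granules here are cytoplasmic RNA granule cores (titled SG in the labels), exosomes are secreted vesicles, and HD stands for Huntington's disease. The study asked how the RNA of both fractions compares in the control and the disease state. The construct or treatment behind the HD state, the medium and serum of the cultures, and the purification of granules and exosomes were not stated in the sources used here. The study describes the 5 libraries of a group as biological replicates of the same line.

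The granule libraries held 17.4 to 38.4 M estimated reads (M stands for 1000000), the control exosome libraries 8.99 to 15.6 M, and 4 of the HD exosome libraries 1.98 to 14.4 M. HD exosome 4 held only 1074 reads, of which 3 fell on Rab genes, and 86.6% of the reads of HD exosome 2 lay on entries with no gene name. HD granule 3 stood apart from the other HD granules for several Rab genes, as given below. Markers of HEK293 cells summed to 54.7 to 102 TPM in control granules and 197 to 246 TPM in control exosomes, with 3 and 5 of the 8 genes at 1 TPM or more in every library. Of 12 blood cell markers, the sum was 9.82 to 34.1 TPM in control granules and 35.9 to 189 TPM in control exosomes, and PPBP was at 0 in both. Of 9 keratinocyte markers, the sum was 0.142 to 0.465 TPM in control granules and 1.47 to 14.2 TPM in control exosomes. In HD-induced cells the HEK293 markers summed to 60.5 to 479 TPM in granules and 0 to 308 TPM in exosomes, the blood markers to 13.6 to 63.3 TPM and 0 to 4100 TPM, with PPBP and PF4 at 0 in both, and the keratinocyte markers to 0.449 to 0.889 TPM and 3.77 to 225 TPM. The highest blood and keratinocyte sums were in HD exosome 5, the sums of 0 in HD exosome 4 and the HEK293 sum of 479 TPM in HD granule 3. Their part in the Rab values was not tested.

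RAB11A and RAB11B encode closely related recycling-endosome proteins, and among the 16 pairs of related Rab genes tested, the ratio of their mRNAs differed the most between control granules and control exosomes. Their coding sequences can differ at the third codon position, so the first 120 coding bases of each are shown, from GENCODE 29 transcripts of build GRCh38, with each G or C at the third codon position in capitals. RAB11A lies at chr15:65869491-65891989 and RAB11B at chr19:8390360-8404434 in the RefSeq annotation of GRCh38.p14. Over these 40 codons RAB11A ended 18 in G or C, and RAB11B 37.
RAB11A: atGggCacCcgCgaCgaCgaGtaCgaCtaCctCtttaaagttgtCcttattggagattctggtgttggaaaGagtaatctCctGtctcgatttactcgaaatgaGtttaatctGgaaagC
RAB11B: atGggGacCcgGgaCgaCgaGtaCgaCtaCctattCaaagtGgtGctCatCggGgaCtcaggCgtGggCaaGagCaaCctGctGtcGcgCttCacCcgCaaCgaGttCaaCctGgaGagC

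Over the whole coding sequences, 35.5% of RAB11A codons and 87.7% of RAB11B codons ended in G or C, and 73.1% of 651 aligned bases were identical. The pair RAB6A and RAB6B, which serve transport at the Golgi, is shown for the same reason. RAB6A, at chr11:73675638-73761074, ended 28 of its first 40 codons in G or C. RAB6B, at chr3:133824235-133895882, ended 30, and over the whole coding sequence 44.5% of RAB6A codons and 76.1% of RAB6B codons did so.
RAB6A: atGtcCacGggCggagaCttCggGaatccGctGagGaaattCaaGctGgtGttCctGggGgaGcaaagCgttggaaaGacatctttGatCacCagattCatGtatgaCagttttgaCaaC
RAB6B: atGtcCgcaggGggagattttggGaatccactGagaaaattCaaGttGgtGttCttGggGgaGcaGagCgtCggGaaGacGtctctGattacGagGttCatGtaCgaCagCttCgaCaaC

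Rab mRNAs made up a smaller part of the named-gene reads in granules than in exosomes. Per 1000000 reads on named genes, 2260 ± 212 lay on Rab genes in control granules (range 2029 to 2564) and 3074 ± 41 in control exosomes (range 3018 to 3132; SD, n = 5 each), so the groups did not overlap. In HD-induced cells the values were 2066 ± 77.6 in granules (range 1962 to 2166) and 2347 to 4208 in exosomes, the highest of these resting on the 3 reads of HD exosome 4. Among total RNA libraries, a lower share of reads on one family and a higher share on other RNAs cannot be told apart.

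By level per transcript length, RAB11A was the most abundant Rab mRNA in control granules, at 68.8 ± 27.6 TPM, and also in control exosomes, at 62.1 ± 14.9 TPM (SD, n = 5 each). TPM, a transcript abundance relative to its library, corrects for length and can be compared between genes. The order below it differed between the fractions. In control granules RAB9A (26.0 ± 12.2 TPM), RAB18 (24.4 ± 8.04 TPM) and RAB14 (21.0 ± 6.11 TPM) followed, with overlapping spreads. In control exosomes RAB1A (45.2 ± 4.48 TPM), RAB5C (39.4 ± 4.59 TPM) and RAB1B (32.3 ± 6.27 TPM) followed, where neighbours in the order again lay within about their spreads. RAB5C was the tenth Rab by mean level in control granules, at 12.0 ± 5.1 TPM, and RAB9A the thirteenth in control exosomes, at 19.0 ± 1.41 TPM. Of the 62 genes, 32 reached 1 TPM in all control granule libraries and 40 in all control exosome libraries.

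In control cells, 25 of 52 tested Rab mRNAs were lower in granules than in exosomes and 4 were higher, by edgeR's quasi-likelihood test at a Benjamini-Hochberg adjusted p under 0.05. Among all 14777 genes tested, 32.5% were lower and 30% were higher, against 48.1% and 7.69% of the Rab mRNAs. The median log2 fold change, granules over exosomes, was -0.48 for the Rab mRNAs and -0.02 for all genes, and 42 of the 52 Rab values were below 0. All libraries of one group lay outside the other's range for 23 of the 52 Rab mRNAs (44.2%), against 49.1% of all genes. The other 10 Rab genes, RAB3C, RAB6C, RAB7B, RAB17, RAB19, RAB25, RAB33A, RAB41, RAB42 and RAB44, had too few reads to be tested in this comparison. Of the 29 calls, 24 were made again in each fit that left out 1 library. The exceptions were RAB1B, lost in 9 of 10 such fits, RAB40B in 7, RAB10 in 6, RAB34 in 5 and RAB2A in 1, and their adjusted p-values in the full fit lay between 0.0023 and 0.047.

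**Figure D1:**
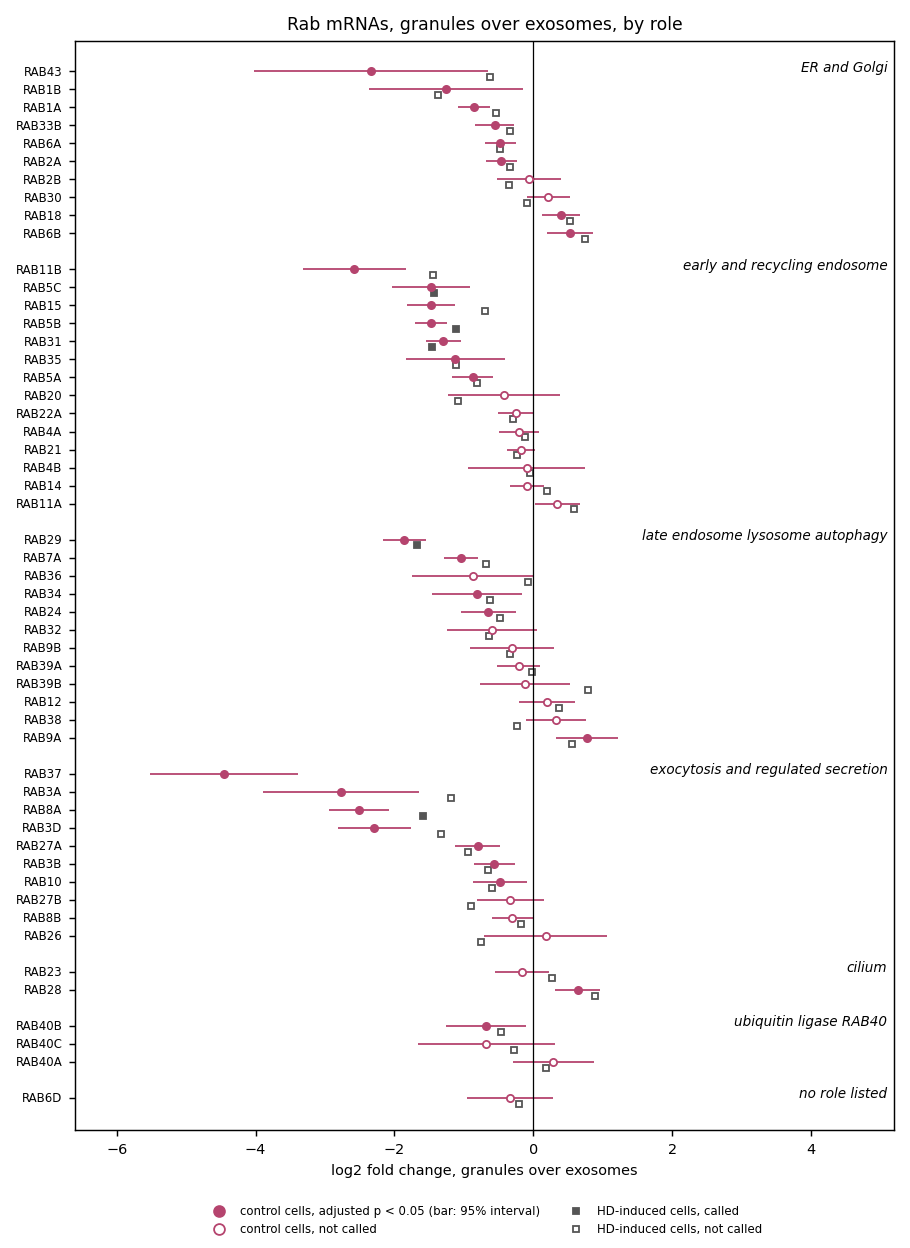
Log2 fold change of each tested Rab mRNA, granules over exosomes, grouped by the role of the protein. Circles with 95% intervals are control cells and squares are HD-induced cells, filled where the adjusted p was under 0.05. Most circles lie left of 0, with the filled ones running from RAB37 at -4.45 to RAB9A at 0.77.

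Of the Rabs of exocytosis and regulated secretion, 7 of 10 tested members (70%) were lower in granules and none was higher. Among all genes tested, 32.5% were lower and 30% higher. RAB8A, which drives polarised exocytosis and the growth of the primary cilium, had 9.6, 10.2, 14.3, 11.1 and 7.53 CPM in control granules, against 42, 65.1, 58.5, 63.6 and 71.7 CPM in control exosomes. CPM are read counts scaled to a common library size, and they are comparable only within a comparison. Every granule library lay below every exosome library, a log2 fold change of -2.51 ± 0.20 (SE), or 5.69-fold (edgeR adjusted p = 8.2e-07). RAB3D, a Rab of secretory granules, averaged 5.88 ± 1.80 CPM in control granules and 28.7 ± 6.49 CPM in control exosomes (SD, n = 5 each), a log2 fold change of -2.29 ± 0.24 (SE).

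RAB3A, the Rab of synaptic vesicles, was scarce in both fractions, at 0.287 to 0.794 CPM in control granules and 1.34 to 8.07 CPM in control exosomes. Its log2 fold change was -2.77 ± 0.52 (SE; edgeR adjusted p = 0.00056) and rested on 47 reads in the granule group and 150 in the exosome group. The largest fold change, -4.45 ± 0.49 for RAB37, a Rab of secretory granules and mast cells, rested on even fewer reads, about 10.1 in control granules and 106 in control exosomes. Transcripts not annotated as coding held on average 80% of the RAB37 reads in control granules and 58.7% in control exosomes. On coding transcripts alone RAB37 had too few reads to pass the filter and was not tested. RAB37 fell below the level set for naming genes and is named because it ended the range. Between the control fractions, the blood marker sums given above moved the same way as RAB37. In some single libraries they did not, on few RAB37 reads. Control exosome 1 had the highest RAB37 level of the control exosomes, 5.31 CPM, and the lowest blood marker sum, 35.9 TPM. HD exosome 5, with 4.25 M reads, had the highest blood marker sum, 4100 TPM, and RAB37 at 0 TPM. A link between them was not tested. The other 3 lower members changed less: RAB27A, which docks multivesicular endosomes and secretory granules at the plasma membrane, by -0.80 ± 0.15, RAB3B by -0.56 ± 0.14 and RAB10 by -0.49 ± 0.18 (log2, SE). RAB27B, at 7.04 ± 1.25 CPM in control granules and 8.91 ± 2.02 CPM in control exosomes, did not pass the test (edgeR adjusted p = 0.21), and neither did RAB8B and RAB26.

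Among the Rabs of early and recycling endosomes, 7 of 14 tested members (50%) were lower in granules and none was higher. The shares of all genes were 32.5% and 30%. All 3 RAB5 genes, which direct the fusion of early endosomes, were among the 7. RAB5C had 37.2 to 117 CPM in control granules, with a median of 56.4 CPM, against 190, 198, 190, 205 and 175 CPM in control exosomes, so the granule libraries were all lower but varied more. Its log2 fold change was -1.48 ± 0.26, beside -1.47 ± 0.11 for RAB5B and -0.87 ± 0.14 for RAB5A (SE). RAB11B had 9.13, 11.2, 4.27, 4.53 and 2.94 CPM in control granules, against 51.6, 32.5, 36.2, 38.3 and 32.2 CPM in control exosomes, a log2 fold change of -2.58 ± 0.34 (edgeR adjusted p = 4.2e-05). RAB11A had 133, 173, 169, 213 and 233 CPM in control granules, against 124, 158, 148, 146 and 148 CPM in control exosomes, where the ranges overlapped. Its log2 fold change of 0.35 ± 0.15 missed the threshold (edgeR adjusted p = 0.055). RAB11A was called higher with the other scaling, without the filter, with DESeq2, with the replicate number as a block, on coding transcripts alone (0.62, edgeR adjusted p = 0.0065) and in 3 of the 10 fits that left out 1 library, whereas the GC correction gave -0.21 (edgeR adjusted p = 0.090). RAB35, a recycling Rab linked to exosome release in glial cells, averaged 48.2 ± 27.4 CPM in control granules and 105 ± 7.36 CPM in control exosomes, a log2 fold change of -1.12 ± 0.33. The RAB35 call was lost without the filter, and with the GC correction alone or with the block. Over all alternatives its value ranged from -1.32 to -0.41. RAB15 (-1.47 ± 0.16) and RAB31 (-1.30 ± 0.12) were lower as well. RAB4A, RAB4B, RAB14, RAB20, RAB21 and RAB22A had values between -0.42 and -0.09 and did not pass.

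The late endosome, lysosome and autophagy group was mixed, with 4 of 12 tested members lower (33.3%) and 1 higher (8.33%). Its share of lower members lay near that of all genes, 32.5%, and its share of higher members below their 30%. RAB29, a partner of the kinase LRRK2 at the trans-Golgi network and stressed lysosomes, had 8.17 to 12.6 CPM in control granules and 36.6 to 43.6 CPM in control exosomes, with little spread within either group. Its log2 fold change was -1.86 ± 0.14 (SE; edgeR adjusted p = 7.4e-07). RAB7A, which matures late endosomes and drives their fusion with lysosomes, averaged 58.4 ± 5.69 CPM in control granules and 120 ± 11.9 CPM in control exosomes, a log2 fold change of -1.04 ± 0.11. RAB34 (-0.81 ± 0.30) and RAB24 (-0.65 ± 0.18) were also lower, but both calls were lost with the GC correction. RAB9A, which carries cargo between late endosomes and the trans-Golgi network, went the other way, with 62.5, 89.4, 96.4, 143 and 146 CPM in control granules, against 56.6, 69.8, 60.5, 65.9 and 61.8 CPM in control exosomes. Granule 1 lay within the exosome range and the other 4 granule libraries above it, and the log2 fold change was 0.77 ± 0.21 (SE; edgeR adjusted p = 0.0063).

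At the endoplasmic reticulum and Golgi, 6 of 10 tested members (60%) were lower in granules and 2 (20%) higher, beside 32.5% and 30% of all genes. RAB1A, which starts transport between these compartments, averaged 87.4 ± 11.3 CPM in control granules and 158 ± 9.20 CPM in control exosomes, a log2 fold change of -0.86 ± 0.11 (SE; edgeR adjusted p = 2.6e-05). Its paralogue RAB1B had 75.3, 234, 39.3, 128 and 20.9 CPM in control granules, against 299, 198, 203, 292 and 197 CPM in control exosomes. The granule libraries thus differed among themselves far more than the exosome libraries, granule 2 overlapped the exosome range, and the adjusted p of 0.047 was lost in nearly all fits with 1 library fewer. RAB6A (-0.47 ± 0.10), RAB2A (-0.46 ± 0.10) and RAB33B (-0.56 ± 0.13) were lower by smaller amounts. RAB43, at -2.34 ± 0.77, is uncertain because reads can be divided between it and the readthrough gene ISY1-RAB43, which held up to 104 reads in a control granule library and 0 in every control exosome library. RAB6B had 27.7 to 33.1 CPM in control granules and 15.4 to 26.1 CPM in control exosomes, a log2 fold change of 0.53 ± 0.15 with no overlap (edgeR adjusted p = 0.0093). RAB18, a Rab of the endoplasmic reticulum and lipid droplets, averaged 178 ± 30.5 CPM in control granules and 135 ± 8.40 CPM in control exosomes, a log2 fold change of 0.40 ± 0.13. Transcripts not annotated as coding held on average 48.6% of the RAB18 reads in control granules and 31.5% in control exosomes. On coding transcripts alone the RAB18 call was lost. With the GC correction RAB18 was called in the opposite direction, at -0.54.

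RAB28, a Rab of photoreceptor outer segments and cilia, had 34.9, 48.6, 42.2, 53.9 and 47.5 CPM in control granules, against 25.0, 31.4, 26.1, 34.7 and 28.9 CPM in control exosomes. The groups did not overlap, and the log2 fold change was 0.64 ± 0.15 (SE; edgeR adjusted p = 0.0024). RAB23, a regulator of hedgehog signalling, did not pass (-0.16 ± 0.18). Of the 3 RAB40 genes, which encode substrate adaptors of ubiquitin ligases, RAB40B was lower at -0.68 ± 0.26 and the other 2 did not pass. RAB6C and RAB6D are 99.5% identical over 765 coding bases, so their reads cannot be assigned with certainty.

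**Figure D2:**
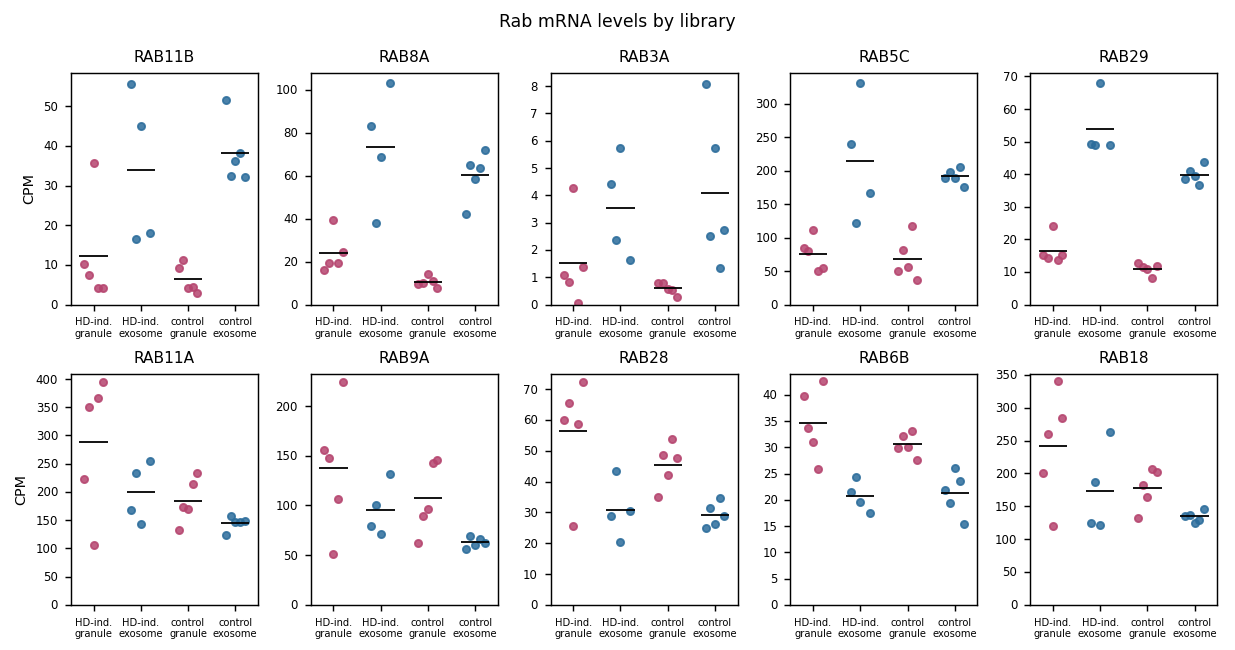
CPM of 10 Rab mRNAs in each library, with the group mean as a bar. CPM are scaled separately for the HD-induced and the control pair of groups, and HD exosome 4, with 3 Rab reads, is left out of the points and means. The upper row shows mRNAs that were lower in control granules than in control exosomes, and the lower row RAB11A and the 4 that were higher.

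The fold changes ran with GC content, among Rab mRNAs as among other mRNAs. Across the 52 tested Rab genes, the log2 fold change had a Spearman rho of -0.43 with the percent of G or C at the third codon position and of -0.48 with the GC content of the reference transcript. With the mean GC content of the protein-coding transcripts, rho was -0.47 over the Rab genes and -0.51 over 13084 tested genes with a protein-coding transcript. Genes are not independent replicates, and all points share the same libraries. The 25 Rab mRNAs lower in granules had a median of 66.8% G or C at the third codon position (range 30.1 to 88.3%), the 4 higher ones 42.1% (range 38.1 to 76.1%), and the 23 not called 53.9%. RAB6B, with 76.1%, was an exception among the higher ones. The length of the 3′ untranslated region showed little relation, with a rho of 0.07. A fit that corrected for GC content put 32 Rab mRNAs lower and 3 higher, beside 34.3% and 27.4% of all genes. The 3 were RAB6B, RAB9A and RAB26. RAB18 turned to -0.54 and was among the lower, and RAB28 turned to -0.02 and was not called. RAB9A was at 0.44 and RAB6B at 1.25.

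**Figure D3:**
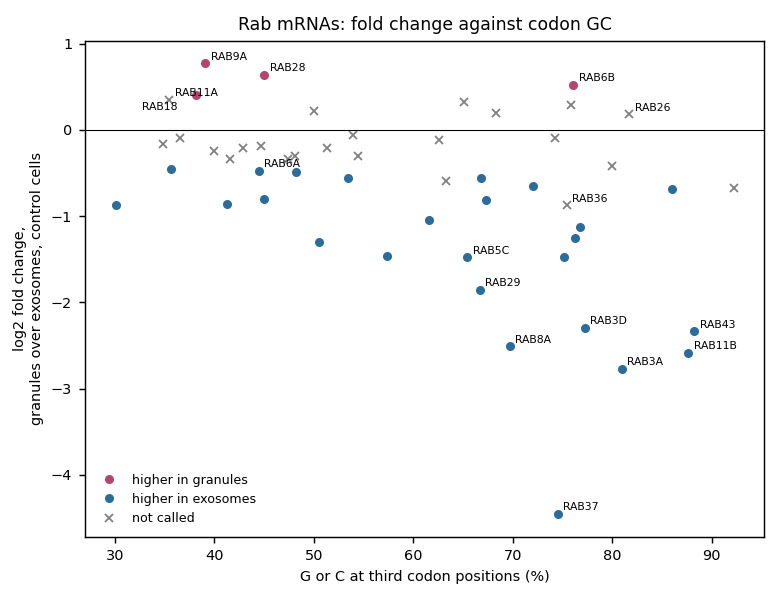
Log2 fold change of 52 Rab mRNAs, granules over exosomes in control cells, against the percent of codons that end in G or C. Points are coloured by their call. The lowest values, from RAB8A at -2.51 downwards, are seen at 69.7% G or C and above, and RAB6B lies apart from the other 3 mRNAs that were higher in granules.

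Within paralogue pairs, the ratio of the 2 mRNAs differed between granules and exosomes in 6 of 16 pairs tested in control cells. A ratio within a library does not depend on the scaling of libraries. RAB11A reads exceeded RAB11B reads by log2 ratios of 3.85, 3.95, 5.29, 5.55 and 6.29 in control granules and of 1.27, 2.27, 2.02, 1.93 and 2.19 in control exosomes, a difference of 3.05, or 8.28-fold. Each of the 6 pairs had no overlap between the groups and the smallest p that 5 against 5 libraries allow, 0.00794 by an exact 2-sided permutation test, or 0.021 after Benjamini-Hochberg adjustment over the 16 pairs. The ratio of RAB8A to RAB8B was -2.18 ± 0.48 in control granules and 0.03 ± 0.40 in control exosomes (log2, SD, n = 5 each). RAB22A and RAB31, sister Rabs of early endosomes, had a ratio of 1.01 ± 0.19 in control granules and -0.03 ± 0.08 in control exosomes. RAB6A over RAB6B averaged 1.71 ± 0.23 in control granules and 2.73 ± 0.36 in control exosomes. RAB9A over RAB9B averaged 4.55 ± 0.30 and RAB3A over RAB3B -6.63 ± 0.61 in control granules, against 3.56 ± 0.47 and -4.66 ± 1.07 in control exosomes. The pairs of RAB1, RAB2, RAB4, RAB5, RAB27, RAB39 and RAB40, and RAB3A with RAB3D, did not pass. On TPM the RAB3A with RAB3B and the RAB9A with RAB9B ratios did not pass, which left 4 of 16 pairs, and on coding transcripts alone 8 of 16 passed.

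**Figure D4:**
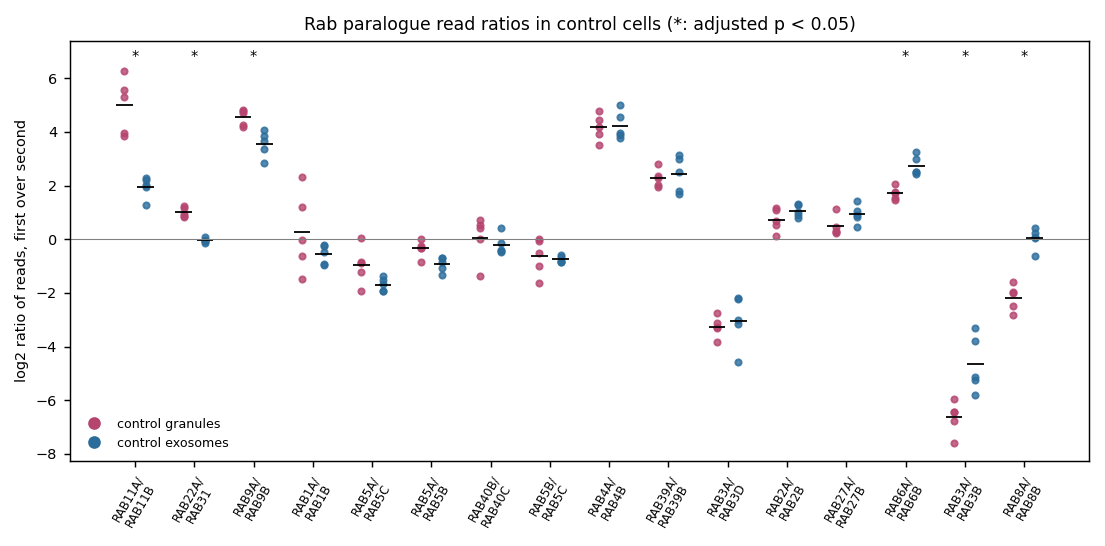
Log2 ratio of the reads of the first to the second gene of 16 Rab paralogue pairs, in each control granule and control exosome library, with group means as bars. Asterisks mark pairs with an adjusted p under 0.05. The RAB11A/RAB11B ratio shows the widest shift, with all granule libraries at 3.85 or more and all exosome libraries at 2.27 or less.

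A larger part of the Rab reads in granules lay on transcripts that are not annotated as coding. Protein-coding transcripts held 87.6, 87.6, 84.1, 85.4 and 85% of Rab reads in control granules, against 92.7, 92.3, 94.1, 95.1 and 93.7% in control exosomes, with no overlap. Over all 18866 genes with a coding transcript, the share was 84.6 ± 0.64% in control granules and 90.8 ± 0.29% in control exosomes (SD, n = 5 each). Retained-intron transcripts held 5.41 ± 0.72% of Rab reads in control granules and 2.38 ± 0.28% in control exosomes, and transcripts of coding genes with no defined coding sequence 5.80 ± 1.23% and 1.84 ± 0.48%.

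RAB14, a Rab of early endosomes and the Golgi, had the widest such difference of the genes compared, and it was singled out after its values were seen. Non-coding isoforms held 49.6, 56.7, 64.5, 70.5 and 70.1% of RAB14 reads in control granules, against 23.4, 29.3, 12.6, 11.1 and 10.3% in control exosomes. The groups lay far apart (adjusted p = 0.027 over 9700 genes with enough reads, exact 2-sided permutation test). A single transcript of 2513 bases with no defined coding sequence held 59.9 ± 11.2% of RAB14 reads in control granules and 16.5 ± 7.21% in control exosomes. A coding transcript of 2811 bases held 11.4 ± 12.4% in control granules and 60.3 ± 7.38% in control exosomes. Summed over all its transcripts, RAB14 did not pass the test between the fractions (-0.09 ± 0.11), whereas its coding transcripts alone were lower in granules by a log2 fold change of -0.97 (edgeR adjusted p = 0.00019). In HD-induced cells the non-coding share of RAB14 ranged from 0 to 72% in granules and from 0 to 38.1% in the 4 exosome libraries with RAB14 reads, so the ranges overlapped.

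Of the 32 Rab genes whose isoforms were compared in this way, 11 had a larger and 1 a smaller non-coding share in control granules by that test. Among all 9700 genes compared, 32.5% had a larger and 2.97% a smaller share, so the Rab counts lay near the background. RAB24, an atypical Rab of autophagy, had 34.6 ± 6.19% in control granules and 11.4 ± 6.52% in control exosomes. RAB8A had 33.0 ± 7.42% in control granules and 14.7 ± 5.06% in control exosomes, and RAB7A 16.5 ± 6.27% and 1.11 ± 1.28% in the same groups. RAB21, an endosomal Rab of integrin traffic, was the exception, with 3.76 ± 1.45% in control granules and 13.5 ± 3.13% in control exosomes. Without RAB14, the coding share of Rab reads was 90.0% in control granules and 94.2% in control exosomes. These shares rest on the authors' division of reads among overlapping transcripts.

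**Figure D5:**
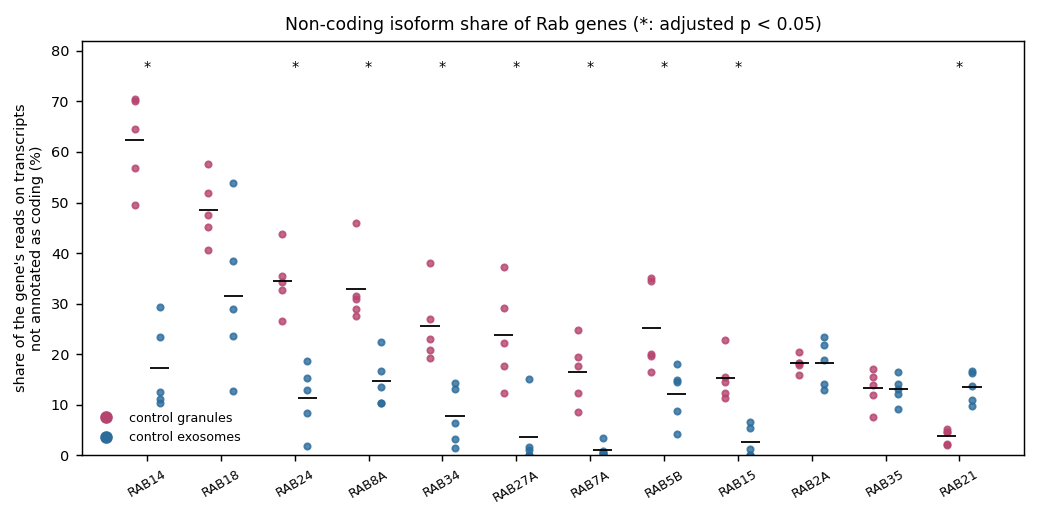
Share of each gene's reads on transcripts not annotated as coding, in percent, for 12 Rab genes in each control granule and control exosome library, with group means as bars. Asterisks mark genes with an adjusted p under 0.05. RAB14 shows the widest gap, all granule libraries lying at 49.6% or more and all exosome libraries at 29.3% or less, and RAB21 runs the other way.

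The genes that regulate Rabs did not share one direction. Of 8 genes for prenylation and membrane extraction, 2 were higher (25%) and 3 lower (37.5%) in control granules. Among all genes tested, 30% were higher and 32.5% lower. RABGGTB, the beta subunit of the enzyme that attaches the lipid anchor to Rabs, averaged 857 ± 199 CPM in control granules and 156 ± 19.4 CPM in control exosomes, a log2 fold change of 2.46 ± 0.17 (SE; edgeR adjusted p = 3.1e-07). Its partner subunit RABGGTA went the other way, at 9.84 ± 1.61 CPM in control granules and 37.8 ± 12.6 CPM in control exosomes (-1.94 ± 0.22). The RABGGTB gene also hosts snoRNAs in its introns, and the unit of these values is the whole annotated gene. The escort protein gene CHM was higher (0.80 ± 0.18).

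Of 35 exchange factor genes tested, 8 were higher (22.9%) and 12 lower (34.3%) in control granules, beside 30% and 32.5% of all genes. DENND4C (1.21 ± 0.11) and DENND1B (1.09 ± 0.11), which activate RAB10 and RAB35, were higher, whereas MON1A of the RAB7 exchange complex (-2.50 ± 0.27) and RGP1 of the RAB6 exchange complex (-1.59 ± 0.18) were lower. Of 35 GTPase-activating protein genes, 13 were higher (37.1%) and 15 lower (42.9%). Among them were TBC1D12 (0.88 ± 0.12), TBC1D20 (-1.22 ± 0.13), TBC1D13 (-1.95 ± 0.24) and TBC1D22B (-1.05 ± 0.14). Of 49 effector genes, 11 were higher (22.4%) and 17 lower (34.7%). PLIN3, a lipid droplet protein that also binds RAB9A, was lower at -2.86 ± 0.21, BICD2, the dynein adaptor recruited by RAB6, at -2.74 ± 0.24, and the RAB5 effector RBSN at -0.99 ± 0.13. PIK3R4, a subunit of the lipid kinase complex that RAB5 recruits, was higher at 1.10 ± 0.14. The median log2 fold change was 0.08 for prenylation genes, -0.13 for exchange factors, -0.21 for GTPase-activating proteins and -0.24 for effectors, against -0.02 for all genes.

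In HD-induced cells, 5 of 51 tested Rab mRNAs were lower in granules than in exosomes and 0 were higher, whereas 5.77% of 14431 genes were lower and 11.9% were higher. These are edgeR calls. DESeq2 called 4 lower and 0 higher, beside 3.43% and 12.4% of all genes. At an unadjusted p under 0.05 in edgeR there were 16 Rab mRNAs of 51, beside 33.9% of all genes. The 5 were RAB29 (-1.67 ± 0.30), RAB8A (-1.60 ± 0.36), RAB31 (-1.46 ± 0.29), RAB5C (-1.43 ± 0.37) and RAB5B (-1.11 ± 0.37), each of which was also lower in control granules. RAB5B (edgeR adjusted p = 0.049) was lost in 8 of the 10 fits that left out 1 library, and also with DESeq2, with the other scaling and without the filter. RAB5C was lost in 3 of those 10 fits, and RAB29, RAB8A and RAB31 were called in all 10. RAB29 had 15.1, 14.2, 24.2, 13.8 and 15.1 CPM in HD granules, against 49.2, 48.9, 68.0, 0 and 49 CPM in HD exosomes, where the 0 belongs to HD exosome 4. RAB8A had 16.1, 19.5, 39.5, 19.3 and 24.4 CPM in HD granules, against 83.0, 37.8, 68.8, 0 and 103 CPM in HD exosomes. The highest granule value was in HD granule 3 for both. The median log2 fold change of the Rab mRNAs was -0.47, against 0.17 for all genes. The 28 Rab mRNAs called in control cells and tested here all kept their sign, as did 94.7% of 8871 genes called in control cells, with no library in common.

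The number of calls in HD-induced cells turned on single libraries. Without HD granule 3, 14 of 49 Rab mRNAs were lower and 2 higher (RAB6B and RAB28), beside 17.4% and 21.3% of all genes. Without HD exosome 4 the Rab counts were 9 lower and 1 higher of 53, beside 7.85% and 10.2% of all genes. With HD granule 3 left out together with HD exosomes 2 and 4 they were 14 and 2 of 53, beside 16.4% and 18.6% of all genes. Leaving out HD exosome 3, HD granule 4 or HD granule 5 lowered the count of lower Rab mRNAs to 3, where 3.19%, 3.46% and 3.15% of all genes were lower. The share of all genes called lower, 5.77% with all libraries, thus moved the same way as the Rab count. With a GC correction 32 Rab mRNAs were lower and 1 higher, beside 26.1% and 11.2% of all genes. RAB11B shows the pattern: it had 10.1, 7.36, 35.7, 4.25 and 4.12 CPM in HD granules, against 55.7, 16.6, 45.1, 0 and 18 CPM in HD exosomes, and its log2 fold change of -1.44 ± 0.62 did not pass (edgeR adjusted p = 0.12). The log2 ratio of RAB11A to RAB11B was 1.56 in HD granule 3 and 4.45 to 6.57 in the other HD granules, against 1.58 to 3.81 in the 4 HD exosome libraries with enough reads. None of the 16 paralogue ratios passed in HD-induced cells, with 3 at an unadjusted p under 0.05 by the exact 2-sided permutation test. For RAB22A over RAB31 the ratios did not overlap, at 0.83 ± 0.22 in HD granules (n = 5) and -0.38 ± 0.41 in HD exosomes (SD, n = 4), with an exact p of 0.0159, the smallest that 5 against 4 libraries allow, and an adjusted p of 0.25.

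Between HD-induced and control exosomes, no Rab mRNA of 52 tested passed in edgeR or DESeq2, and none had an unadjusted p under 0.05, while 0% of 12936 genes passed and 7.58% had an unadjusted p under 0.05 in edgeR. All 5 keratinocyte markers tested were at an unadjusted p under 0.05 and higher in HD exosomes, and their part was not tested. The Rab log2 fold changes ran from -1.65 for RAB37 to 0.59 for RAB26, with a median of 0.08. RAB27A, one of the Rabs tied to exosome secretion, had a log2 fold change of 0.37 (95% interval -0.18 to 0.92), RAB35 did not pass either, and RAB11A had 0.20 (95% interval -0.26 to 0.66). Without HD exosome 1, 2 Rab mRNAs passed, RAB37 and RAB43, both lower in HD exosomes and named after their values were seen, where 3.23% of 13088 genes were lower and 0.565% higher.

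Between HD-induced and control granules, no Rab mRNA of 53 tested passed in edgeR or DESeq2, and 0% of 16750 genes passed in edgeR. At an unadjusted p under 0.05 there were 2 Rab mRNAs of 53, RAB8A and RAB7A, beside 1.28% of all genes. RAB8A had 12.1, 14.5, 30.5, 14.3 and 18 CPM in HD granules, against a mean of 10.2 ± 2.32 CPM in control granules (SD, n = 5), a log2 fold change of 0.80 ± 0.28 (SE) with its highest value again in HD granule 3. RAB7A averaged 73.0 ± 12.2 CPM in HD granules and 56.7 ± 5.44 CPM in control granules, a log2 fold change of 0.37 ± 0.15. Both had an adjusted p of 1.0. The highest and lowest log2 fold changes, 1.01 for RAB3A and -0.76 for RAB1B, had 95% intervals of -0.65 to 2.66 and -2.35 to 0.84. The difference between the HD effect in granules and that in exosomes passed for no Rab mRNA of 55 tested in edgeR or DESeq2, with 1 (RAB6C) at an unadjusted p under 0.05, beside 4.82% of all genes, and for 0.0186% of 16154 genes (0.00619% higher and 0.0124% lower).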

How the data were processed

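Total RNA libraries of 20 samples in 4 groups were compared. The authors quantified transcripts against GRCh38.p14, and the submitters' processing notes name Trimmomatic, cutadapt, FastQC and Salmon, with no versions. The deposited files give an expected count and a TPM value for each of 921552 entries, of which 251955 are named transcripts. The Rab genes, their role lists, the pathway lists and the pairs were chosen with earlier results of these data known.

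Expected counts were summed per gene, rounded, filtered with filterByExpr, scaled by TMM and tested in edgeR 4.0.16 (R 4.3.3) by its quasi-likelihood method with robust dispersion, using the 2 groups of each comparison, or all 20 libraries for the difference of effects. P values were adjusted over all genes tested, and the threshold was 0.05. DESeq2 1.42.0 was an alternative. The fits were tested on simulated counts. Ratios used a pseudocount of 0.5, and libraries with under 10 reads over a pair gave none. The planned test of the coding share of Rab reads is given as values, without a p. Isoform shares per gene were tested after the values were seen, over all genes with at least 10 reads in each control library.

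The named genes were up to 6 called Rab genes per direction with the largest fold change and at least 5 CPM in either group, both genes of each tested pair, RAB27A, RAB27B, RAB35, RAB11A and RAB11B, and up to 4 genes of each pathway list with the smallest p, of which 1 is not reported here. RAB14, RAB37 and others given in passing were chosen after their values were seen. Coding sequences are from GENCODE 29 and positions from RefSeq, both on GRCh38. Libraries held 1074 reads at the least and 38.4 M at the most, M standing for 1000000.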

Additional observations from a re-analysis of the deposited data

Results flagged for a closer look

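Among 92 groups of 4 or 5 values that were looked at (named Rab mRNAs, read shares and paralogue ratios by group), 5 held a single library whose gap to the nearest value was most of the group's range, and chance alone marks about 1 in 20 groups. Control exosome 1 had 5.31 CPM of RAB37, against 1.84 to 2.73 CPM in the other control exosomes. It also had 32 CPM of RAB40B, against 13.3 to 18.2 CPM, and 126 CPM of RAB5B, against 109 to 113 CPM. Without that library the log2 fold change of RAB40B, granules over exosomes, was -0.42 and no longer passed (edgeR adjusted p = 0.12). Control granule 2 had 33.1 CPM of RAB40C, against 4.95 to 13 CPM in the other control granules, and 8.95 CPM of RAB43, against 0.0717 to 1.61 CPM.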

How the results depend on the processing

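In control cells, the counts of Rab mRNAs lower (25) and higher (4) in granules stayed within 1.5 times under the other scaling, without a filter, with DESeq2, on coding transcripts and with a GC correction, at 17 to 32 lower and 3 to 6 higher. The genes called changed more than the counts. Of the 29 calls, 27 were made again with the other scaling, 26 with DESeq2 and 23 with the GC correction. The 23 include RAB18, which was called there in the opposite direction, lower in granules at -0.54. Without the filter, and on coding transcripts, 20 were made again. RAB40B was lost in each of these fits, and RAB2A, RAB6A and RAB33B both without the filter and on coding transcripts. Leaving out 1 library gave 20 to 25 lower and 4 to 6 higher. The other scaling put the all-gene median at 0.09, against -0.02, and that of the Rab mRNAs at -0.37, which kept the gap between them at -0.46. The coding share of Rab reads, granules minus exosomes, was -7.63 points, -5.56 on TPM and -8.53 to -7.16 with 1 library or the most abundant gene, RAB11A, left out.

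In HD-induced cells, 5 were lower and 0 higher with all libraries. There were 2 higher with the other scaling, 1 without the filter, 1 with the GC correction (beside 32 lower), and 2 with HD granule 3 left out together with HD exosomes 2 and 4 (beside 14 lower). Leaving out 1 library gave 3 to 14 lower and 0 to 2 higher. In HD-induced against control exosomes it gave 0 to 2 calls. The cause of these shifts was not tested.

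Same-numbered libraries did not deviate together in all pairs of any comparison, so the numbers are not taken as pairs. Correlations were -0.27 to 0.35 in control cells, -0.093 to 0.38 between exosomes, -0.18 to 0.61 between granules and 0.0058 to 0.35 in HD-induced cells, the last with 4 of 5 pairs above 0.1 and the lowest in number 4, whose exosome library held 1074 reads. Not every library correlated best with its own number. Number 5 did so in each comparison, at 0.35 in control and in HD-induced cells, 0.38 between exosomes and 0.61 between granules. Number 1 did so in each except that between granules. Whether same-numbered libraries share a culture or day was not stated. With the replicate number as a block, 26 Rab mRNAs were lower and 5 higher in control granules, and 11 and 2 in HD granules. Of all genes, 4927 were lower and 4370 higher of 14777 in control granules. In HD granules 1415 were lower and 2591 higher of 14431, up from 833 and 1720 without the block. With the block and the GC correction together the Rab counts were 31 and 1 in control cells and 27 and 1 in HD-induced cells. Of all genes, 4983 were then lower and 3849 higher in control cells, and 3412 and 1179 in HD-induced cells.

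Some log2 fold changes in control cells changed sign. With the GC correction, and with the block added, RAB11A was -0.21 and -0.22, RAB18 -0.54 and -0.54, RAB28 -0.018 and -0.020, RAB40B 0.086 and 0.10, and RAB4B 0.70 and 0.67. On coding transcripts RAB22A was 0.021, RAB27B 0.069, RAB2B 0.13, RAB39A 0.059, RAB39B 0.17 and RAB4B 0.0065. With the other scaling, and without the filter, RAB14 was 0.029 and 0.041, RAB2B 0.043 and 0.057, RAB39B 0.0026 and 0.016, and RAB4B 0.0053 and 0.020. With DESeq2, RAB14 was 0.029, RAB2B 0.043 and RAB4B 0.0062. Leaving out 1 library, RAB14 ranged from -0.13 to 0.087, RAB2B from -0.15 to 0.091, RAB39B from -0.27 to 0.087 and RAB4B from -0.27 to 0.13. None of these except RAB18, RAB28 and RAB40B was called with all libraries. RAB24, which was called with all libraries and is not in this list, also changed sign. Over all alternatives it ranged from -0.83 to 0.13. Its call was lost with the GC correction, with and without the block.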
